A study of Mus musculus with 24 samples.

Results

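Trimethylation of lysine 4 of histone H3 (H3K4me3) was profiled in the livers of DEN-treated wild type and Smyd3 knockout mice, and the 2 lists of enriched regions deposited for those livers are compared here in full. The wild type list held 15579 regions and the knockout list 17491, which made 33070 of the 60394 regions in the region lists analysed, the other 27324 being Smyd3 peaks of treated wild type liver. Both groups were mice of 8.5 months, C57BL6/CBA in the sample labels (the growth protocol names C57Bl6), that had received diethylnitrosamine (DEN), a liver carcinogen, once by intraperitoneal injection at 25 mg/kg. The wild type mice carried no engineered allele per the labels, and the knockout mice carried a gene trap in intron 5 of Smyd3 in every tissue, made from gene-trap embryonic stem cells. Each genotype had 2 precipitated livers, from mice labelled 1 and 2, and 1 list for the 2 of them, so the region lists were compared as descriptions with no test. RNA of treated livers, from 3 wild type mice (DEN_WT) and 3 knockout mice (DEN_KO), is the replicated measurement set beside the lists, with 3 untreated wild type (WT) and 3 untreated knockout (KO) mice in the same fit.

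H3K4me3 marks the nucleosomes around the start sites of genes that are active or poised, and it is written mainly by the SET1 and MLL complexes. CpG-rich promoters recruit those complexes and usually carry the mark in every cell type, whereas at CpG-poor promoters the mark tends to follow transcription in the cell type that uses the gene. Broad H3K4me3 domains, which run from the start into the gene body, are a feature of highly used genes that define a cell's identity. SMYD3 is a SET and MYND domain methyltransferase for which both histone and cytoplasmic substrates have been described.

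The promoters of 5 genes listed in 1 genotype only are shown for the range of their CG content. Each runs from 250 bases before to 50 bases after the gene's start, in the gene's own direction, with every CG pair in capitals, and comes from RefSeq on build GRCm38.p6. Gpc3 and Tspan8 were in the wild type list only, and Clec4f, Cyp1a2 and Lrat in the knockout list only.
Gpc3: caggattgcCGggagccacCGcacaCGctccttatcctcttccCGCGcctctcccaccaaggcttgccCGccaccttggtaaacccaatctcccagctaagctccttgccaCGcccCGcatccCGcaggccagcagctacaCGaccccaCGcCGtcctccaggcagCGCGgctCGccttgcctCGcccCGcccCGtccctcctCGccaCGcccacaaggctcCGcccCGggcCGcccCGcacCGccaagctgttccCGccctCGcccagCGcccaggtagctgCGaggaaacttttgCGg
Tspan8: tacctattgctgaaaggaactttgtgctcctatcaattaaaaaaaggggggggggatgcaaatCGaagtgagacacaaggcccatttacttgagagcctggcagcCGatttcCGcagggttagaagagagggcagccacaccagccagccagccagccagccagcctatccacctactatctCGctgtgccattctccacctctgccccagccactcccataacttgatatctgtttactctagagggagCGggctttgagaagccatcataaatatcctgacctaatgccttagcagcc
Clec4f: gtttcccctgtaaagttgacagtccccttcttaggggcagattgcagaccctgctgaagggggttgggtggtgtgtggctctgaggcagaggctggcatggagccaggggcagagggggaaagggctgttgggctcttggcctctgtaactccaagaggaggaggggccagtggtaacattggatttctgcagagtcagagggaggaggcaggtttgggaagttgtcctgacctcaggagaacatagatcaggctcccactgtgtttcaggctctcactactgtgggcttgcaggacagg
Cyp1a2: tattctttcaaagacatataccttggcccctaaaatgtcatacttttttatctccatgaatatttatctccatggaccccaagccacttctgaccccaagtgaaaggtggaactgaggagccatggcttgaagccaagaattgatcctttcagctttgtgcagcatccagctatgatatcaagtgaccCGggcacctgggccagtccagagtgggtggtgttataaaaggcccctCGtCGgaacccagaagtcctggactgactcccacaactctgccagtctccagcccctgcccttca
Lrat: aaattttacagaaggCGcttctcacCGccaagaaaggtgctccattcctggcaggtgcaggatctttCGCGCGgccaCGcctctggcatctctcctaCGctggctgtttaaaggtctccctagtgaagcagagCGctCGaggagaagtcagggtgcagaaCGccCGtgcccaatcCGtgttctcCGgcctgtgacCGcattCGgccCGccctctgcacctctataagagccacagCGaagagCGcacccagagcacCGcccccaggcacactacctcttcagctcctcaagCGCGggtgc
They lie at chrX:52613925-52614224 (- strand), chr10:115817034-115817333 (+ strand), chr6:83656067-83656366 (- strand), chr9:57683606-57683905 (- strand) and chr3:82903925-82904224 (- strand) of GRCm38.p6. Gpc3 held 30 CG pairs and Lrat 21, against 5 in Tspan8, 3 in Cyp1a2 and 0 in Clec4f, so both kinds of promoter occurred on each side. By the mm9 gene starts of the deposited table, the listed regions of Tspan8 and Clec4f begin just inside the gene and do not cover such a window. All other coordinates below are of build mm9, the build of the deposited lists, and the 2 builds are not set against each other.

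The knockout list was the longer in number of regions, in bases covered and in the width of single regions. It covered 32.9 Mb against 26.9 Mb in wild type, a ratio of 1.22, with 1.12 times as many regions. The median region was 1480 bases wide in wild type and 1576 in knockout. Regions of at least 5000 bases numbered 386 in wild type and 647 in knockout. Ratios of covered bases per chromosome were above 1 throughout, highest on the Y chromosome, where 23 wild type regions faced 51 knockout regions (ratio 4.84), and on the X (ratio 1.53). The lists carry no signal height and the depth of the precipitated libraries is unknown, so a start missing from a list had no region called there, which is not a measured absence of the mark.

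Most regions were common to both genotypes. Of the wild type regions 13456 (86.4%) overlapped a knockout region by at least 1 base, and of the knockout regions 13364 (76.4%) overlapped a wild type region. The bases held by both lists came to 22.7 Mb, 84.2% of the wild type bases and 69.0% of the knockout bases. The 2123 regions of the wild type list alone were short (median 437 bases) and made up 5.82% of its covered length. The 4127 regions of the knockout list alone had a median of 583 bases and made up 12.1% of its length. At 1000 bases or more, 499 regions stood in the wild type list alone and 1273 in the knockout list alone.

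Where a region met exactly 1 region of the other list, the knockout region was more often the wider. These 13141 pairs had median widths of 1622 bases in wild type and 1822 in knockout, and the median ratio was 1.11 (log2 0.15, quartiles -0.12 and 0.45). With a change called at a ratio of 1.3, 3938 pairs (30.0%) were wider in knockout, 1593 (12.1%) were narrower and 7610 (57.9%) were similar. Of the pairs that changed, 71.2% were wider, and 53.9% once the widths were scaled so that the median ratio was 1, which leaves 2792 wider and 2389 narrower. The whole wild type region lay inside its knockout counterpart in 43.4% of pairs and the reverse held in 13.8%. The shift was present in each of 4 equal groups of pairs by mean width, with medians of 0.18 in the narrowest and 0.12 in the widest, and pairs narrower in knockout made up 16.8% of the narrowest group and 7.64% of the widest. Log2 widths correlated across pairs with r = 0.79, a description over regions that share their 2 lists.

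**Figure D1:**
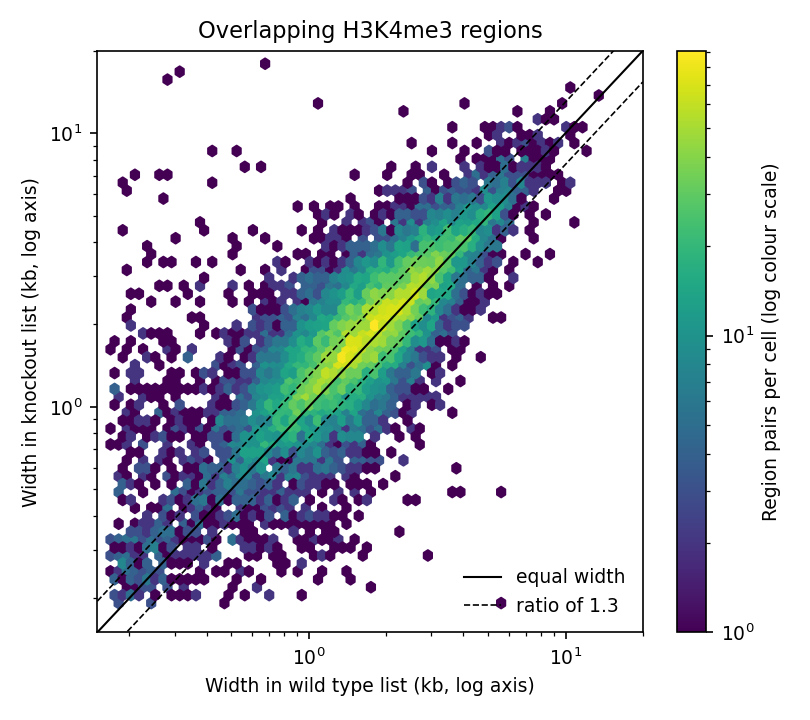
Width of each of the 13141 overlapping region pairs in the wild type list (x axis, kb, log scale) and in the knockout list (y axis, kb, log scale), with colour giving the number of pairs per cell. The densest cells lie just above the line of equal width, where the median ratio was 1.11, and the dashed lines at a ratio of 1.3 leave 3938 pairs above and 1593 below.

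The added width lay mostly on the gene side of the start. For the 8290 pairs at starts of genes on a single strand, the upstream edge stood 38 bases further out in knockout at the median and the downstream edge 99 bases further out. Downstream edges that moved outward by over 500 bases made up 20.7% of these pairs, against 6.03% of upstream edges. Inward moves of that size were 8.19% downstream and 5.05% upstream. Among the 2404 wider pairs the medians were 157 bases upstream and 590.5 downstream. Among the 943 narrower pairs both edges had moved in, by medians of -168 and -467 bases, so that the gene side carried more of the change in both directions.

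**Figure D2:**
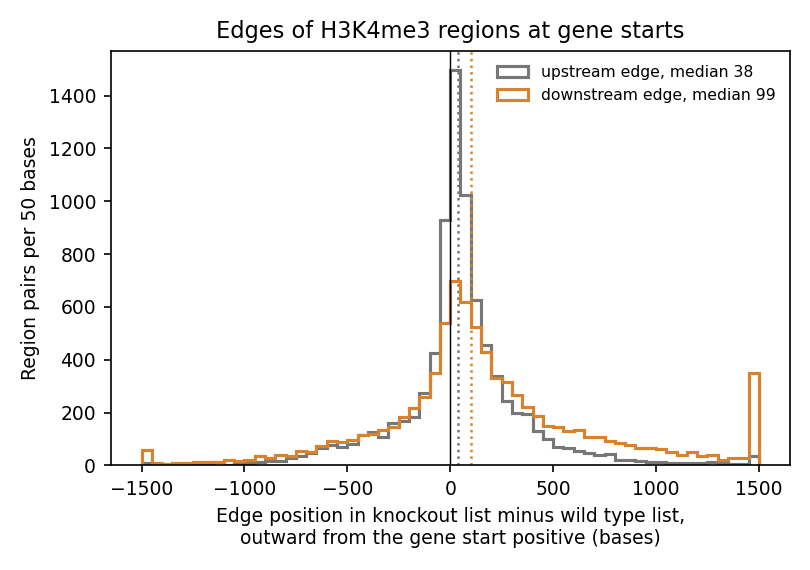
Position of the upstream and downstream edge in the knockout list minus the wild type list, in bases with outward moves positive, for the 8290 pairs at starts of genes on a single strand; the y axis counts pairs per 50 bases, and values beyond the range of the x axis are gathered in its outermost bins. The downstream edge has the longer right-hand tail, with 20.7% of pairs beyond 500 bases.

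Regions common to both lists sat at gene starts, and regions of a single list mostly did not. A start of the deposited gene table lay within 1000 bases of 69.9% of wild type and 63.8% of knockout regions. For regions shared with the other list these shares were 77.4% and 77.9%, but only 22.2% of the regions in the wild type list alone and 17.8% of those in the knockout list alone lay at a start. Between genes lay 1017 of the 2123 regions in the wild type list alone and 2189 of the 4127 in the knockout list alone, where their median widths were 271 and 408 bases. Smyd3 peaks of treated wild type liver overlapped 73.7% of shared wild type regions and 74.3% of shared knockout regions, against 23.4% and 18.0% of the single-list regions. At gene starts the overlap was 65.0% for regions of the wild type list alone and 37.1% for those of the knockout list alone.

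By gene, 12799 of 37583 starts were in both lists, 555 in the wild type list only, 893 in the knockout list only and 23336 in neither. The single-list classes differed in promoter sequence. For the 17857 genes matched by symbol to a RefSeq promoter, the observed to expected ratio of CG pairs had a median of 0.79 for genes in both lists, 0.68 for the wild type list only, 0.42 for the knockout list only and 0.23 for neither. A ratio above 0.6 was found in 76.0%, 61.0%, 35.1% and 15.9% of these classes, in 48.4% of all matched genes and in 36.5% of all 27025 promoters of the table. The letters TATAAA, on either strand, occurred in 6.61%, 8.63%, 13.1% and 20.0%, in 12.6% of all matched genes and in 14.2% of all promoters of the table. Listing also followed RNA level. In the lowest of 10 equal groups of tested genes by DEN liver RNA, 30.7% were in the wild type list and 31.8% in the knockout list, against 88.8% and 91.1% in the highest group, where the median widths were 2827 and 3135 bases.

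RNA was tested in DEN_KO against DEN_WT for the 16471 genes that reached 10 in 3 or more libraries, with limma on log2(value + 1) and Benjamini-Hochberg adjustment. Over all tested genes 33.9% were called at an adjusted p under 0.05, 16.4% higher and 17.4% lower in DEN_KO, with a median log2 fold change of -0.06. These shares are the background for every count of called genes below. The RNA comes from bulk liver, so fewer cells of a type and less RNA per cell cannot be told apart, and the same holds for H3K4me3 regions. In RNA, DEN_KO replicate 2 stood apart in several tumour markers, and DEN_WT replicate 2 was the lowest treated library in many hepatocyte and macrophage genes. Values without each are given where they matter.

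Genes with H3K4me3 in the wild type list only had lower RNA in DEN_KO far above the background share. Of 284 tested, 99 (34.9%) were called lower and 24 (8.45%) higher, with a median log2 fold change of -0.82. Where the wild type region was at least 1000 bases wide, 62 of 147 (42.2%) were lower and the median was -1.33. When both lists were instead limited to regions of at least 1000 bases before classing the genes, 32.8% were lower. Genes in the knockout list only leaned slightly the other way, with 128 of 593 (21.6%) higher, 67 (11.3%) lower and a median of 0.11. With a knockout region of at least 1000 bases, 82 of 410 (20.0%) were higher, and 15.6% when both lists were limited first. The 21.6% and 11.3% are close to the genes in neither list, of which 20.8% were higher and 11.1% lower with a median of 0.14. Among genes in both lists, a narrower pair went with lower RNA, in 302 of 1093 (27.6%) with a median of -0.26. A wider pair did not go with higher RNA, with 486 of 3183 (15.3%) higher and 624 (19.6%) lower. For a narrowing of over 2-fold, 59 of 142 genes (41.5%) were lower, whereas a widening of over 2-fold left 85 of 537 (15.8%) higher. Over the 11162 genes with a pair, the log2 width ratio and the RNA change had a Pearson r of 0.08 and a Spearman rho of 0.04, across genes that are not independent.

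Read from the RNA side, the wild type list only class, 284 of the 16471 tested genes, made up more of the genes with larger falls. It held 3.45% of all 2868 genes called lower. Its share was 14.1% of the 483 lower by at least 2 on the log2 scale and 20.3% (31) of the 153 lower by at least 3. The share in neither list rose as well, from 16.5% to 35.4% and 40.5%. The knockout list only class, 593 of the tested genes, held 4.73% of the 2708 genes called higher. Of the 115 higher by at least 3 it held 14.8% (17), and 65.2% were in neither list. Without DEN_WT replicate 2, 31.0% of the genes in the wild type list only were lower against 12.4% of all tested genes, and 15.5% of those in the knockout list only were higher against 12.1%. With the DEN mice numbered 1 and 2 only, the numbers that the chromatin samples carry, the shares were 21.5% lower against 8.38% and 13.0% higher against 9.59%.

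**Figure D3:**
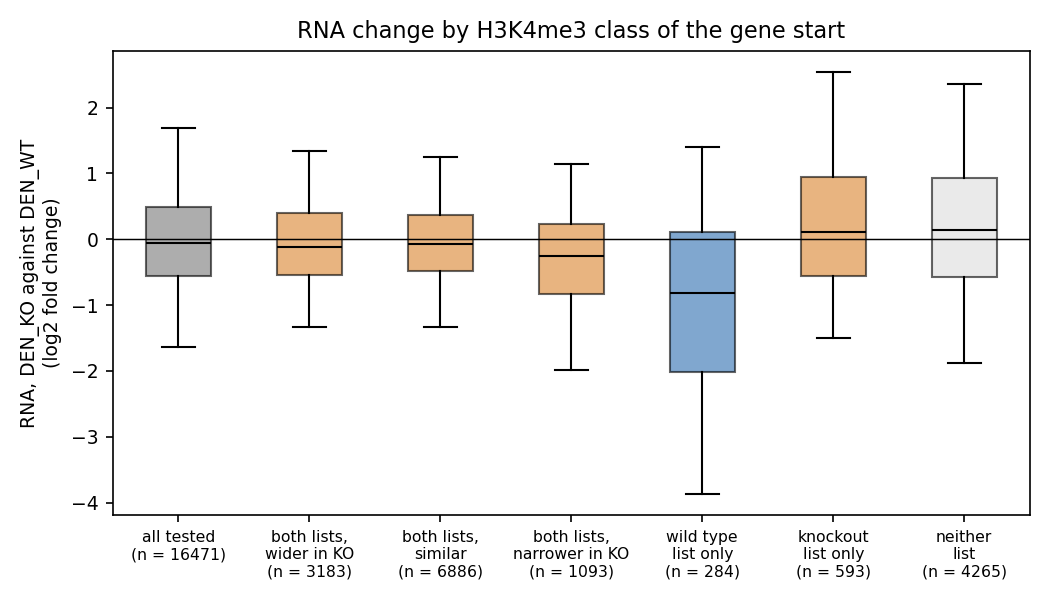
Log2 fold change of RNA in DEN_KO against DEN_WT (y axis) for all tested genes and for each H3K4me3 class of the gene start (x axis, n tested in brackets); boxes give the quartiles and median, whiskers the 5th to 95th percentile, blue the genes in the wild type list only and orange the other classes with a knockout region, grey all tested genes and those in neither list. Genes in the wild type list only sit lowest with a median of -0.82, and the 3 width classes of genes in both lists lie near 0 with the narrower pairs at -0.26.

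Fetal and tumour-linked liver genes formed the clearest group in the wild type list. Of 28 members, 19 had a wild type region and 11 a knockout region, with 9 in the wild type list only and 1, the epithelial adhesion gene Epcam, in the knockout list only (467 bases). Among the 9, 7 had lower RNA in DEN_KO, against 17.4% of all tested genes, Ly6d did not pass and Lin28b was under the filter. Members with a region in both lists fell about as often, in 8 of 10. Their median was -2.42, against -3.65 for the wild type list only members. Their pairs were 7 similar, 1 wider and 2 narrower in knockout, so lower RNA was not particular to members missing from the knockout list. The summed RNA of the list was 62166, 62868 and 62077 in DEN_WT and 6780, 44184 and 4559 in DEN_KO, where replicate 2 stood apart. Over the whole list, chosen with these data known, RNA was lower for 18 of 27 tested members and higher for 0, with a median of -2.50, and lower for 22 without DEN_KO replicate 2.

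Gpc3 (ENSMUSG00000055653), a cell-surface proteoglycan of fetal liver and hepatocellular carcinoma, had a 2195-base wild type region at chrX:49965443-49967637 over its start. Its RNA read 2224, 3385 and 2704 in the DEN_WT mice and 153, 146 and 113 in DEN_KO. The groups did not overlap, and the difference was -4.32 ± 0.37 (log2 fold change ± SE, n = 3 each, limma adjusted p = 2.8e-05). In untreated liver Gpc3 read 18, 26 and 18 in wild type and 53, 59 and 18 in knockout, below every treated mouse. Tspan8 (ENSMUSG00000034127), a tetraspanin of invasive epithelial tumours, had 1208 bases at chr10:115254472-115255679. It read 1416, 2848 and 3704 in DEN_WT and 149, 295 and 69 in DEN_KO (-4.08 ± 0.61, limma adjusted p = 0.00038). Akr1c18, a progesterone-reducing steroid dehydrogenase, had 1005 bases at chr13:4148931-4149935 and fell by 4.63 in RNA (limma adjusted p = 0.00016), from 1580, 2745 and 2464 to 46, 132 and 111. Cdcp1, a transmembrane substrate of SRC kinases, had 933 bases and RNA of 283, 228 and 288 against 22, 14 and 12. In these 4 picked genes every DEN_WT mouse lay above every DEN_KO mouse. The same held for 18 of the 28 list members and for 7 of the 9 in the wild type list only. How many of all tested genes separate in this way was not counted, so these counts have no background.

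Ly6d, a GPI-anchored surface protein, had a 1740-base region in the wild type list only, but its RNA was split in the knockout. It read 538, 517 and 2035 in DEN_WT and 88, 1883 and 83 in DEN_KO, where the high value belonged to replicate 2. The difference was -1.78 ± 0.93 with a limma adjusted p of 0.16, and -3.26 with an adjusted p of 0.0014 without that mouse. A mouse numbered 2 is also 1 of the 2 labelled for the knockout precipitation, though the labels do not say that it is the same animal, and the knockout list had no Ly6d region. Lcn2, a siderophore-binding protein of injured epithelium, kept a region that was narrower in knockout, 627 bases against 1801, and its RNA was 16278, 11421 and 14401 in DEN_WT and 319, 4371 and 457 in DEN_KO (-4.01 ± 0.68, limma adjusted p = 0.00082). Afp, the fetal serum protein, and H19, an imprinted RNA, had no region at their starts in either list despite DEN_WT RNA values of 2417, 5067 and 2504 for Afp and 14044, 7549 and 3305 for H19.

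**Figure D4:**
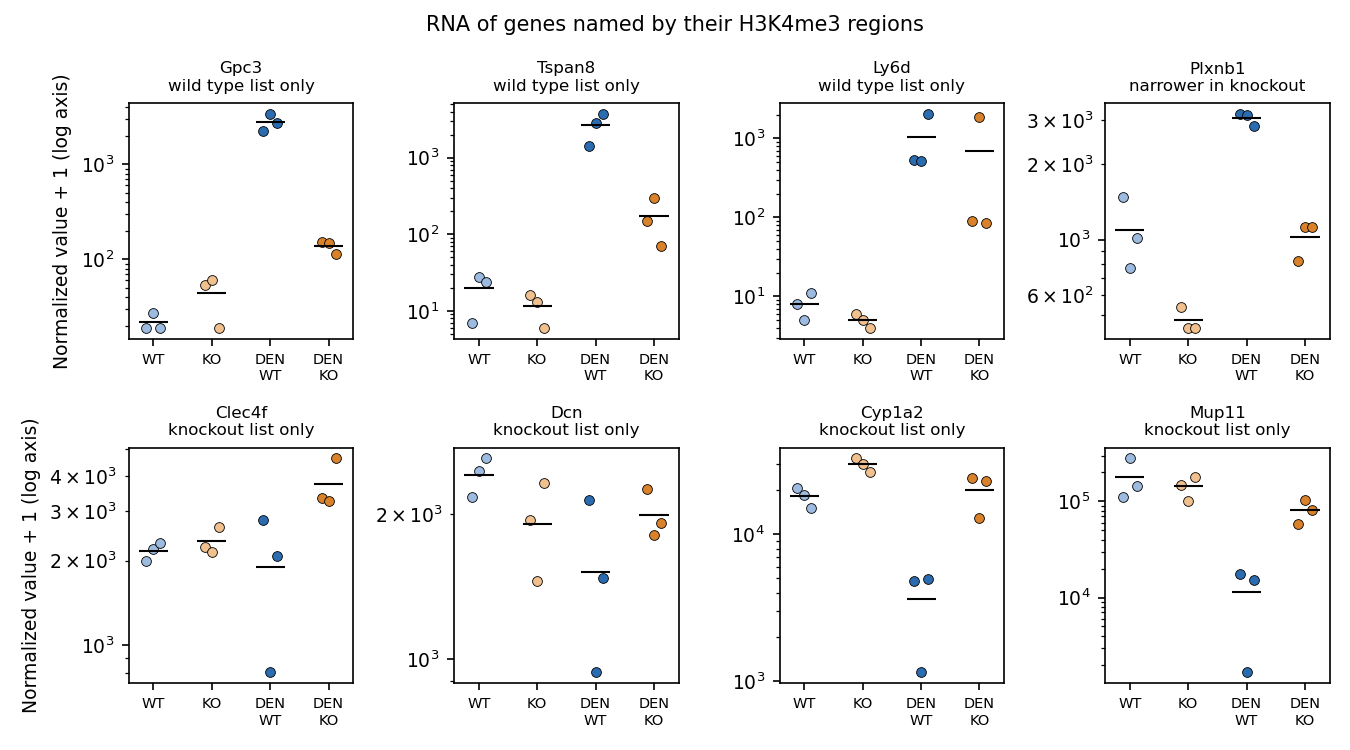
Deposited normalized RNA values plus 1 (y axes, log scale) of 8 genes in every mouse of the 4 groups, with points for mice and bars for the group means. Gpc3 and Tspan8 separate DEN_WT from DEN_KO in every mouse, Ly6d does not because of 1 DEN_KO mouse at 1883, and Clec4f, Cyp1a2 and Mup11 have their lowest value in the same DEN_WT mouse.

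Among all genes in the wild type list only that passed the test, the 10 with the largest RNA change were lower in DEN_KO. Gldn, gliomedin, a secreted olfactomedin-domain protein, had 2599 bases at chr9:54133564-54136162 with a Smyd3 peak, and read 608, 1821 and 1252 against 18, 36 and 5 (-6.11 ± 0.75, limma adjusted p = 0.00013). Phgdh, the first enzyme of serine synthesis, had 1045 bases with a Smyd3 peak and read 186, 1118 and 847 against 9, 33 and 18 (-4.92 ± 0.61, adjusted p = 0.00014). Alox5, which starts leukotriene synthesis, and Apln, the peptide ligand of the apelin receptor, had wild type regions of 1195 and 1795 bases and fell by 4.32 and 4.33 in RNA. The other members of these 10 were Wfdc15b, Sult4a1, Akr1c18, Gpc3, Myo5c and Tspan8, with changes from -5.0 to -4.08. The 2 groups overlapped in none of the 10, which adds nothing to the calls, because these genes were picked by the size of their RNA change.

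Among the widest regions of the wild type list alone, the 5091-base region at 1110012J17Rik went with lower RNA (-3.78 ± 0.52, adjusted p = 0.00024), as did 3782 bases at Galntl2, an enzyme of mucin-type glycosylation (-3.43 ± 0.44, adjusted p = 0.00016). Gm15710 went the other way, with 3544 bases in the wild type list only and RNA higher in DEN_KO (1.6 ± 0.24, adjusted p = 0.00038). The widest of all, at Gm8893, was 10595 bases, and it overlapped a 6521-base knockout region that ended too far from that gene's start to count there. Other genes of the 10 (2610005L07Rik, Tmem180, Casz1 and Hmga2) did not pass in RNA, although Hmga2, a fetal chromatin protein, did after quantile normalization (limma adjusted p = 0.031), with the replicate block (0.049) and without DEN_KO replicate 2 (0.019), and Inhbb, the beta B subunit of activin, was lower by 1.54 on the log2 scale but did not pass when DEN_WT replicate 2, DEN_WT replicate 3 or DEN_KO replicate 3 was left out (limma adjusted p of 0.063, 0.067 and 0.087).

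The regions that narrowed most in knockout included several at abundant liver transcripts. The 8711-base wild type region at chr7:52067393-52076103, which spans the starts of Atf5, Nup62 and Il4i1, was 3531 bases in knockout. Atf5, a stress-response transcription factor, read 14533, 28979 and 17420 in DEN_WT and 7642, 16025 and 8384 in DEN_KO. The groups overlapped, and its fall (-0.95 ± 0.31, limma adjusted p = 0.029) missed the threshold at -0.66, -0.75 and -0.81 when DEN_WT replicate 2, DEN_KO replicate 1 or DEN_KO replicate 3 was left out (adjusted p = 0.13, 0.11 and 0.11). At Plxnb1, a receptor for semaphorin 4D, 7841 bases at chr9:108992895-109000735 became 3376. Its RNA was 3177, 3157 and 2848 against 822, 1126 and 1126, without overlap (-1.59 ± 0.21, limma adjusted p = 0.00022). The sterol desaturase Sc5d (9808 to 6092 bases), the zinc and iron importer Slc39a14 (11847 to 8447) and the fatty acid desaturase Fads2 (8326 to 5064) were lower in RNA by 1.26, 1.2 and 0.74 on the log2 scale. The antitrypsin genes Serpina1c (10578 to 6588 bases) and Serpina1b (9852 to 6605), whose close copies can share reads, did not pass in RNA, nor did Rrbp1, a ribosome receptor of the endoplasmic reticulum (7624 to 4059), and Wsb2 (5608 to 2164). Serpina1b passed without DEN_WT replicate 1 (limma adjusted p = 0.04) and Rrbp1 after quantile normalization (adjusted p = 0.031). Each of these narrowing wild type regions held a Smyd3 peak, as did 83.9% of all shared wild type regions at gene starts. Cdh1, E-cadherin, belonged to the same pattern at smaller width, with 3598 bases against 1639 and RNA of 2522, 3440 and 3544 against 481, 1214 and 643 (-2.12 ± 0.39, limma adjusted p = 0.0013).

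Cell division genes had lower RNA with little difference in their regions. Of 30 mitosis genes 28 were in the wild type list and 26 in the knockout list, and of the paired members 7 were wider, 18 similar and 1 narrower in knockout. The narrower member was Cdk1, the kinase that drives mitosis, at 1687 bases against 943. RNA was lower for 21 of 30 and for 5 of 30 without DEN_WT replicate 2, for 8 without DEN_KO replicate 3 and for 11 without DEN_KO replicate 1. Cdc20, which activates the anaphase-promoting complex, and Bub1b, a spindle checkpoint kinase, were the 2 in the wild type list only, with 1228 and 1110 bases. Cdc20 RNA was 59, 198 and 42 in DEN_WT and 43, 75 and 30 in DEN_KO, which did not pass (-0.77 ± 0.63, limma adjusted p = 0.37). Of 22 growth and cell cycle entry genes 21 were in each list, and their pairs were 4 wider, 13 similar and 2 narrower in knockout. RNA was lower for 11 of the 22, and for 6 without DEN_WT replicate 2. The growth genes Myc and Ccnd1 had wider regions in knockout (5339 bases against 3952 and 4521 against 2759). Their RNA was lower (-1.7 ± 0.33 and -1.6 ± 0.37, limma adjusted p = 0.0021 and 0.0057).

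On the knockout side, drug-metabolising hepatocyte genes had wider regions and higher RNA together. Of 28 P450 and drug metabolism genes 20 were in the wild type list and 24 in the knockout list. Among their pairs 11 were wider, 8 similar and 0 narrower, with a median log2 width ratio of 0.42 against 0.15 over all pairs. RNA was higher for 24 of 28, against 16.4% of all tested genes, and for 19 without DEN_WT replicate 2, which was the lowest of the 6 treated libraries for 25 of the 28. Its part in the H3K4me3 difference was not tested. Cyp1a2 (ENSMUSG00000032310), which oxidises caffeine and aromatic amines, had 2852 bases at chr9:57528646-57531497 in the knockout list only. Its RNA read 4795, 1149 and 4936 in DEN_WT and 24315, 12997 and 23221 in DEN_KO, without overlap (2.69 ± 0.44, limma adjusted p = 0.00071). In untreated liver Cyp1a2 read 20672, 18512 and 15224 in wild type and 32944, 30240 and 26593 in knockout, so the treated wild type mice were the low group. Cyp2b10, Cyp2c37 and Cyp2c38 were likewise in the knockout list only and higher by 2.72, 2.11 and 2.11 on the log2 scale, although Cyp2c38 did not pass without DEN_WT replicate 2 or DEN_KO replicate 1 (adjusted p = 0.059 each). Cyp7a1, the rate-limiting enzyme of bile acid synthesis, had 365 bases in wild type and 4824 in knockout, with RNA of 1297, 312 and 1630 against 906, 2779 and 2159, which did not pass (1.01 ± 0.65, adjusted p = 0.24). Nr1i3, the constitutive androstane receptor that controls Cyp2b genes, had 1124 bases in wild type and 3296 in knockout, and RNA of 1374, 1008 and 1995 against 11516, 11454 and 13284 (3.1 ± 0.38, adjusted p = 0.00013).

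PPARA targets, which serve fatty acid oxidation and storage, and male-biased liver genes also had more members in the knockout list. Of 24 PPARA targets 20 were in the wild type list and 23 in the knockout list, and 16 were higher in RNA. Acot1, an acyl-CoA thioesterase, Plin5, which coats lipid droplets, and Fitm1, which helps form them, were in the knockout list only, with 918, 1141 and 936 bases. Their RNA was higher by 3.7, 1.63 and 4.62 on the log2 scale. Of 16 male-biased genes 12 were in the wild type list and 15 in the knockout list, the median log2 width ratio of their pairs was 0.88 with 8 wider and 0 narrower, and 12 were higher in RNA (9 without DEN_WT replicate 2, 8 without DEN_KO replicate 3, 6 with mice 1 and 2 only). Cyp7b1, an oxysterol hydroxylase, went from 1987 to 7071 bases, and its RNA did not pass (1.17 ± 0.52, adjusted p = 0.096). Elovl3, a fatty acid elongase, had 1382 bases in the knockout list only and RNA of 1124, 405 and 923 against 3306, 2640 and 2170 (1.83 ± 0.39, limma adjusted p = 0.0035).

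The Mup cluster on chromosome 4 encodes the major urinary proteins secreted by male liver. It held several of the widest knockout regions at tested genes whose start was in the knockout list only. Of 21 Mup genes 6 had a start in the wild type list and 17 in the knockout list. Mup16, Mup11, Mup1 and Mup19 had 11873, 11269, 9885 and 9044 bases in the knockout list only, and the Mup3 region went from 4062 to 13090 bases. Mup11 RNA was 17694, 1676 and 15181 in DEN_WT and 58318, 103724 and 82122 in DEN_KO (3.37 ± 0.70, limma adjusted p = 0.0029). Untreated mice read 110231, 280571 and 142952 in wild type and 147970, 102008 and 179547 in knockout for Mup11, above every treated wild type mouse. RNA was higher for 20 of the 21 genes, for 19 without DEN_WT replicate 2, which was the lowest treated library for all 21, and for 13 with mice 1 and 2 only. These genes are near-identical copies, so reads and regions may be split among them and single values are uncertain.

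**Figure D5:**
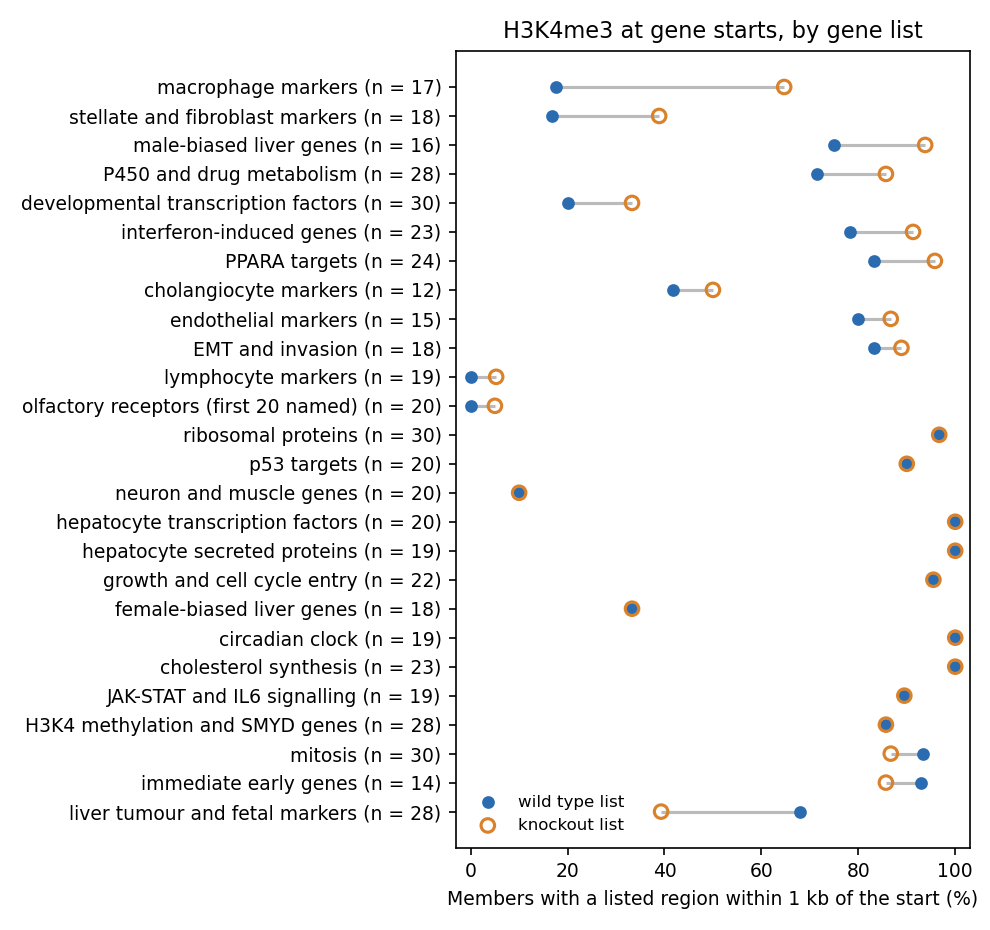
Share of the members of 26 gene lists whose start lay within 1 kb of a region (x axis, percent), in the wild type list (filled) and the knockout list (open), with the number of members in brackets. Of the 26 lists, macrophage markers gain most in the knockout list, from 3 to 11 of 17, and liver tumour and fetal markers lose most, from 19 to 11 of 28.

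Markers of macrophages and stellate cells were found in the knockout list more often than in the wild type list. In RNA, 2 of the 17 macrophage markers were higher and 3 lower, and 0 of the 18 stellate markers were higher and 6 lower. Of 17 macrophage markers 3 were in the wild type list and 11 in the knockout list, and for the 8 in the knockout list only the median width was 3297 bases. Clec4f (ENSMUSG00000014542), a galactose-binding receptor of Kupffer cells, had 9071 bases at chr6:83597036-83606106. Its RNA was 2797, 802 and 2076 in DEN_WT and 3344, 3266 and 4621 in DEN_KO (1.15 ± 0.34, limma adjusted p = 0.018). This rise missed the threshold without DEN_KO replicate 3 (0.98, limma adjusted p = 0.077) and with the treated groups alone in the fit (adjusted p = 0.063). Without DEN_WT replicate 2 it was 0.62 (limma adjusted p = 0.04). Cd5l, a macrophage-secreted protein, and Cd163, the haemoglobin scavenger receptor, had 5172 and 4972 bases in the knockout list only. Cd5l RNA was 3660, 759 and 2299 against 3254, 2309 and 3928, and Cd163 RNA 350, 32 and 62 against 168, 228 and 353, and neither passed (limma adjusted p = 0.18 and 0.091), though both did without DEN_WT replicate 1 (adjusted p = 0.019 and 0.00044). Without DEN_WT replicate 2 their log2 fold changes were 0.09 and 0.69 (limma adjusted p = 0.81 and 0.38), against 0.74 and 1.41 with all mice. The complement genes C1qb and C1qc had 2916 and 3678 bases in the knockout list only. All 8 of these genes were lowest in DEN_WT replicate 2, and 1 of the 8 passed in RNA. The 2 markers called higher among the 17 became 8 without DEN_WT replicate 1, 1 without DEN_WT replicate 2 and 0 without DEN_KO replicate 3. The summed RNA of the 17 markers was 27110, 11891 and 21738 in DEN_WT and 16953, 16152 and 21382 in DEN_KO, so the groups overlapped. The regions' own levels in single mice are unknown, and the part of 1 mouse in them was not tested. With the start required inside the region, 2 of the 17 rather than 8 were in the knockout list only.

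Of 18 stellate and fibroblast markers 3 were in the wild type list and 7 in the knockout list. Lrat, which stores retinol as esters in quiescent stellate cells, had 6834 bases at chr3:82701953-82708786, and Dcn, the matrix proteoglycan decorin, had 5248 bases at chr10:96941246-96946493, both in the knockout list only. Lrat RNA read 368, 137 and 193 in DEN_WT and 297, 258 and 378 in DEN_KO, and Dcn RNA 2138, 939 and 1471 against 2250, 1809 and 1913. Neither passed (0.52 ± 0.34 and 0.47 ± 0.25, limma adjusted p = 0.25 and 0.17), though both did without DEN_WT replicate 1 (adjusted p = 0.038 and 0.027). Without DEN_WT replicate 2 they were 0.2 for Lrat and 0.16 for Dcn (limma adjusted p = 0.7 and 0.64). With the start required inside the region, 2 rather than 5 of the 18 were in the knockout list only. Pdgfra, a growth factor receptor of mesenchymal cells, had 4571 bases in the knockout list only and RNA of 106, 96 and 88 against 70, 80 and 105. The summed RNA ran from 6424 to 11618 in DEN_WT and from 4593 to 5476 in DEN_KO, opposite in direction to the regions. Hand2, a transcription factor of the septum transversum mesenchyme and of stellate cells, had the widest knockout-only region at a tested gene, 12057 bases at chr8:59795709-59807765, with RNA of 102, 35 and 55 against 215, 120 and 137 (1.37 ± 0.38, limma adjusted p = 0.013). Hand2 missed the threshold without DEN_WT replicate 2 (1.01, limma adjusted p = 0.062) or DEN_KO replicate 1 (1.13, adjusted p = 0.058). Of 12 endothelial marker pairs 6 were wider and 0 narrower, against 30.0% and 12.1% of all pairs, among them Pecam1 at 1065 bases in wild type and 3118 in knockout with RNA of 601, 561 and 611 against 478, 543 and 492. Lymphocyte markers were nearly absent, with 0 of 19 in the wild type list and 1, Ptprc, in the knockout list.

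Hepatocyte transcription factors and secreted proteins were listed in both genotypes, unlike some of the P450 and Mup genes above. All 20 hepatocyte transcription factors and all 19 secreted hepatocyte proteins had a region in each list. Hnf4a, the master regulator of hepatocyte genes, had 1703 and 1623 bases and RNA of 19299, 13368 and 15243 against 15517, 13251 and 19004. Nr1h4, the bile acid receptor FXR, went from 2986 to 7308 bases with RNA that did not pass (0.46 ± 0.24, limma adjusted p = 0.16). Cholesterol synthesis genes (23 of 23 in each list), clock genes (19 of 19) and ribosomal protein genes (29 of 30) also kept their regions. Of the cholesterol genes 17 were lower in RNA, and their 7 wider and 3 narrower pairs of 23 were near the shares over all pairs (30.0% and 12.1%). Neuron and muscle genes were listed for 2 of 20 in either genotype. Developmental transcription factors were listed for 6 of 30 in wild type and 10 of 30 in knockout, and 10 of the 30 reached the RNA filter. Sox17 at 6329 bases and Gata4 at 4141 bases were in the knockout list only.

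The 10 widest wild type regions all met a knockout region, whereas some of the widest knockout regions met little or nothing in wild type. The longest wild type region, 13474 bases at Sdc4, a heparan sulfate proteoglycan, had a 13430-base counterpart, and the next, at the transcriptional repressor Bcl6, had 11998 and 14333 bases. In the knockout list the longest was 18327 bases at Nr2f2, the orphan receptor COUP-TFII, where 3 wild type regions of 9623 bases in all were found and the RNA did not differ past the threshold (-0.07). The next 3 knockout regions, of 17930, 16577 and 16171 bases, lay between 145 and 147 Mb of chromosome 4 and faced wild type regions of 656, 303 and 282 bases. The 14288-base knockout region at Zfp640, a zinc finger gene, met none.

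Smyd3 itself had a region in both lists, at chr1:181447157-181448518 in wild type (1362 bases) and chr1:181447096-181449066 in knockout (1971 bases), so the trapped gene's start was listed in the knockout too. Its RNA read 57, 71 and 74 in DEN_WT and 12, 3 and 8 in DEN_KO (-3.13 ± 0.41, limma adjusted p = 0.00018). The exons before the trap can still be read. Of 28 genes for H3K4 methylation and SMYD enzymes 24 were listed in each genotype, with 6 pairs wider, 15 similar and 3 narrower.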

How the data were processed

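RNA was measured in 12 livers and H3K4me3 in 2 DEN-treated livers per genotype. The deposited region lists give a start and an end per region, a score of 0 in every line and no replicate. The submitters' processing notes name build mm9 and the tools Bowtie2, cutadapt, Cufflinks, DESeq and TopHat2 2.0.9. For the region lists the caller, and how the 2 replicates were joined, is not given in the sources used. Per the labels, the authors' RNA values are normalized counts; they are whole numbers in the deposited table and are treated here as a score. Sums ran from 22320634 to 28973396 per library. The GC share of a gene is a fraction the authors' table gives. Columns of other samples numbered 0. The RNA polymerase II and input samples were not analysed here.

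Region overlap was counted from 1 base, width change over pairs that overlap 1 to 1 at a ratio of 1.3, and gene starts (gene start on the + strand, end on the - strand) within 1000 bases. Values were compared on log2(value + 1) with limma 3.58.1 (R 4.3.3), trend on, the 4 groups in a single fit, for genes at 10 or more in at least 3 libraries. Fold changes understate low genes. An exact permutation test of 3 against 3 mice cannot go below p = 0.10. The fit was tested on simulated data. Python 3.11.15, pandas 2.3.3 and numpy 2.4.6 handled the regions.

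The lists and members were chosen with earlier results of these data known. Named are, per list, up to 4 members in 1 genotype only or with the largest width change, the 10 pairs at tested genes that narrow and widen most, the 10 widest regions of each list alone at tested genes, the 10 widest of each list, the 10 largest RNA changes of each single-list class, and Smyd3. A few genes that meet the rule are not reported here. Genes named beyond this rule (Myc, Ccnd1, Afp, H19, Cdh1, Nr1i3, Nr1h4, Hnf4a, Ptprc and Pecam1) were chosen after their values were seen. Alternatives covered region size, merging, overlap, window, width threshold, pseudocount, filter, quantile scaling, the samples fitted, a replicate block and each mouse left out.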

Additional observations from a re-analysis of the deposited data

How the results depend on the processing

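The knockout list kept its larger number and covered length with regions of at least 1000 bases, merged regions and autosomes only. Overlap of at least 0.5 of both regions left 76.0% of wild type and 67.7% of knockout regions shared, and regions of at least 1000 bases gave 90.4% and 79.8%. The median log2 width ratio was 0.12 for pairs of at least 1000 bases (2467 wider, 929 narrower) and 0 by construction once scaled to its own median; a threshold of 1.5 gave 2437 wider and 885 narrower. Regions at a gene start were 61.9% and 56.4% (wild type, knockout) with the start inside, 75.6% and 69.5% within 5000 bases, and 65.9% and 60.3% for tested genes. With the start inside the region 838 genes were in the wild type list only, and 1503 were in the knockout list only from regions of at least 1000 bases. Of genes in the wild type list only, 29.3% were lower in RNA with the start inside; of those in the knockout list only, 15.6% were higher from regions of at least 1000 bases, under the background; and 31.8% of genes narrowed by 1.5 were lower. These 3 were chosen after seeing the data, as was the fit of DEN mice numbered 1 and 2 only, which called 2961 genes (1381 lower, 1580 higher), with 61 of the wild type list only lower, 77 of the knockout list only higher, 155 with a narrower pair lower and 293 with a wider pair lower. Called genes ranged from 4020 to 5102 with each mouse left out, and the replicate block called 5288 of 16471. Deviations from the group mean correlated at -0.0541, 0.12 and 0.0295 between same-numbered DEN_WT and DEN_KO mice. Those with different numbers ran from -0.152 to 0.132. With 3 mice a group these values cannot decide whether the numbers pair the mice. Of 62 named genes past the threshold, 17 lost it in at least 1 setting and 0 reversed. With 1 list per genotype and no depth, no error can be set on any region value.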

Other observations

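A small part of the regions of a single list gathered in a few stretches of repeated genes. The fullest such stretch of the knockout list, at the Mup genes of chromosome 4, held 1.66% of the bases of the knockout list alone. Between 19 and 20 Mb of chromosome 8, at the beta-defensin genes, 29 of 36 wild type regions met no knockout region and held 3.58% of the bases of the wild type list alone. Between 15 and 16 Mb of chromosome 5, at the Speer4 genes of testis, 19 of 21 did. In the knockout list, 17 of 17 regions between 66 and 67 Mb of chromosome 13, in a cluster of zinc finger and Gm genes around Zfp640 (14288 bases), and 23 of 26 between 1 and 2 Mb of the Y chromosome, around Zfy2 and Sry, met no wild type region. Between 120 and 121 Mb of the X chromosome both lists had such regions, 24 of 47 in wild type and 35 of 53 in knockout. How reads of repeated sequence were placed is not given in the sources used.

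Some of the largest widenings were at genes of other cells than hepatocytes. Msr1, a macrophage scavenger receptor, had 203 bases in wild type and 7131 in knockout, with RNA of 426, 359 and 404 in DEN_WT and 281, 298 and 192 in DEN_KO (-0.65 ± 0.30, limma adjusted p = 0.11, and 0.038 with the treated groups alone in the fit). Ctsc, a lysosomal protease of immune cells, went from 2141 to 7725 bases with RNA of 5027, 1797 and 3114 against 2337, 1773 and 2233 (limma adjusted p = 0.19, and 0.023 without DEN_WT replicate 2). Bcl11a, a transcription factor of blood and nerve cells, went from 1522 to 6971 bases at RNA values of at most 22.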
